A study of Mus musculus with 18 samples.

Results

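The 10 genes described here were Clk1, Clk2, Clk3, Clk4, Ccnl1, Ccnl2, Luc7l, Ogt, Rbm39 and Ddx5, picked by name from the 34620 genes with counts. They encode splicing kinases, cyclins of splicing kinases and other RNA-processing proteins, together with the O-GlcNAc transferase Ogt, and several are known for transcripts that keep introns. No measured value entered the choice by name, but it was made with earlier results of these data known. All 10 had enough reads to be tested, among 17421 genes tested.

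Expression was measured by RNA-Seq in the ventral dentate gyrus of male Swiss Webster mice, an outbred strain, aged 8 to 12 weeks. The dentate granule cell layer was microdissected from frozen sections of 200 µm, and each of 3 groups had 2 libraries. WT males had WT mothers and grandmothers and came from a lineage bred in parallel. F1 males were genetically WT sons of parents heterozygous for the serotonin 1A receptor (5HT1A-/+). F2 males were sons of F1 females and WT males, so that the mother's parents and not the mother carried the deletion. The labels name no treatment of any group. The males of each group came from at least 3 litters, and how many males went into a library is not stated in the sources used here. The p-values therefore measure the spread between these libraries, which may be in part technical.

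Serine/arginine-rich proteins (SR proteins) bind exons and recruit the spliceosome, and Cdc2-like kinases (the Clk family) in the nucleus phosphorylate them and set where they reside and how they act. Some polyadenylated transcripts keep chosen introns and stay in the nucleus, where they can be spliced later or degraded. Such introns are called detained introns, and the Clk transcripts and Ogt are well known for them. Counts per gene do not measure an intron: a read is included if it lies within any exon of a gene in the annotation used for counting. That annotation is not given, so whether it held exons of retained-intron transcripts, which span an intron, is not known.

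The introns beside exon 4 of Clk1 and Clk4 are shown because exon 4 is the exon whose skipping is known to give a truncated kinase. In the GENCODE M1 annotation on the mm9 genome, introns 3 and 4 were spanned by annotated retained-intron transcripts of both genes. Clk1 intron 3 lies at chr1:58477056-58477926 (871 bases, minus strand) and intron 4 at chr1:58476578-58476964 (387 bases). Clk4 intron 3 lies at chr11:51085525-51086579 (1055 bases, plus strand) and intron 4 at chr11:51086671-51087061 (391 bases). The 5′ splice sites below give 3 bases of the exon in lower case and 6 bases of the intron in capitals.
Clk1 intron 3: gggGTATGA
Clk4 intron 3: tcgGTATGA
Clk1 intron 4: gatGTATAG
Clk4 intron 4: gatGTATAG
Clk2 intron 3: tcaGTGAGT
Clk2 intron 4: gatGTACAA

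The 6 intron bases of intron 3 were the same in Clk1 and Clk4, and so were those of intron 4. They are far less frequent in the genome than GTAAGT, which began 13.5% of 211968 introns of coding transcripts. The intron 3 letters began 0.879% and the intron 4 letters 0.176%. In Clk2, where both introns beside exon 4 are also spanned by a retained-intron transcript, intron 4 began with letters found in 0.228% of introns, but intron 3 with GTGAGT, found in 14.5%. Letters far less frequent than GTAAGT were not shared by all such introns of the 10 genes. Of 17 distinct 5′ splice sites of introns spanned by a retained-intron transcript, 8 were GTAAGT or GTGAGT. Among these were Clk1 intron 6 and Clk4 introns 7 and 8. The match to GTAAGT is a description of the letters and was not tied to splicing here.

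Exon 4 of Clk1 (chr1:58476965-58477055) and of Clk4 (chr11:51086580-51086670) is given next, with capitals at the positions where they differ.
Clk1 exon 4: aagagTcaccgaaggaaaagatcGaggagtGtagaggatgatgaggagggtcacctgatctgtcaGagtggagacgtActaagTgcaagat
Clk4 exon 4: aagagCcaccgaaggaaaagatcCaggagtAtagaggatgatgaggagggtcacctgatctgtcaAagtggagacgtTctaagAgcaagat
Both exons are 91 bases long, which leaves 1 base over when divided by 3, and 85 of the 91 bases (93.4%) are identical.

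Relative to WT, all 4 Clk kinases were lower in both F1 and F2. Clk1 fell most among them, to 40.5% of WT in F1 and 34.1% in F2, followed by Clk4, Clk2 and Clk3. Levels are given as CPM, the reads of a gene scaled to the size of its library with TMM factors of edgeR. A gene was called when q, the p of the exact test in edgeR after Benjamini-Hochberg adjustment over all tested genes, was under 0.01. The quasi-likelihood test of edgeR gave far larger q for Clk1, Clk2, Clk3, Clk4, Ccnl1 and Ccnl2, though under 0.01 in both groups. Among these genes Clk3 came nearest to the threshold. How small q is therefore depends on the test, and the q values below are of the exact test unless another is named. Fold changes are on the log2 scale with SE.

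Clk1 (chr1:58467033-58480910) had 258 and 168 CPM in the WT libraries, 95.6 and 77 CPM in F1, and 71.9 and 73.3 CPM in F2. The WT libraries lay above all others but 1.54-fold apart, the widest gap between WT libraries among these genes. The log2 fold change by edgeR was -1.30 ± 0.18 in F1 (q = 4.67e-11) and -1.55 ± 0.18 in F2 (q = 3.7e-15). With WT replicate 1 left out, the difference was smaller, -0.96 in F1 (edgeR q = 1.56e-07) and -1.21 in F2, and Clk1 was still called in both.

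Clk4 (chr11:51075232-51095268) had 124 and 96.8 CPM in WT, 52.8 and 44.1 CPM in F1, and 43.8 and 46.4 CPM in F2. The F1 and F2 values overlapped, and all 4 were well below WT. The log2 fold change was -1.19 ± 0.14 in F1 (edgeR q = 5.04e-14) and -1.29 ± 0.14 in F2 (q = 3.18e-16). Clk2 (chr3:88968717-88980843) had 67.1 and 53.3 CPM in WT, 31.3 and 30.3 CPM in F1, and 28.9 and 32.2 CPM in F2. It fell to about the same level in both groups, with log2 fold changes of -0.97 ± 0.14 (edgeR q = 1.2e-09) and -0.98 ± 0.14 (q = 9.83e-10).

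Clk3 (chr9:57598518-57613667) had 59.6 and 47.4 CPM in WT, 35 and 31.2 CPM in F1, and 32.8 and 34.6 CPM in F2. It changed least of the 4 kinases, with log2 fold changes of -0.69 ± 0.14 in F1 (edgeR q = 3.64e-05) and -0.67 ± 0.14 in F2 (q = 8.43e-05), and the groups did not overlap with WT. Without WT replicate 1 it was no longer called (edgeR q = 0.0194 in F1 and 0.0327 in F2), nor in F2 without F2 replicate 1 (q = 0.0234). Exons of Edc3 on the opposite strand share 582 bases with Clk3, 23.3% of its exon length, and the library kit does not mark strand. HTSeq drops reads that lie wholly in that overlap, if the annotation used for counting held the same exons.

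The L-type cyclins, Ccnl1 and Ccnl2, are partners of cyclin-dependent kinases that act in transcription and splicing, and both fell. Ccnl2 (chr4:155186598-155198652) had 281 and 202 CPM in WT, 111 and 102 CPM in F1, and 107 and 108 CPM in F2. In log2 terms it changed by -1.18 ± 0.15 in F1 (edgeR q = 4.46e-13) and -1.17 ± 0.15 in F2 (q = 1.11e-12), with all F1 and F2 values close together. Ccnl1 (chr3:65750073-65762171) had 85.5 and 82.5 CPM in WT, 45.5 and 44.9 CPM in F1, and 47.4 and 40.5 CPM in F2. The WT libraries were nearly equal for this gene, unlike for Clk1 and Ccnl2. Its log2 fold change was -0.89 ± 0.12 in F1 (edgeR q = 6.11e-11) and -0.93 ± 0.12 in F2 (q = 1.03e-11).

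The RNA-binding and RNA-processing proteins Rbm39, Luc7l and Ddx5 were lower by smaller amounts. Rbm39 (chr2:155972975-156005974), an SR-related splicing cofactor, had 294 and 289 CPM in WT, 206 and 217 CPM in F1, and 209 and 198 CPM in F2. It was lower in both, with log2 fold changes of -0.46 ± 0.11 in F1 (edgeR q = 0.000659) and -0.52 ± 0.11 in F2 (q = 0.000114). The F1 call was lost when WT replicate 1, WT replicate 2 or F1 replicate 1 was left out (edgeR q from 0.0107 to 0.0207), and the F2 call without F2 replicate 2 (q = 0.0234).

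Luc7l (chr17:26389855-26422449), a homologue of a yeast protein of the U1 small nuclear ribonucleoprotein, had 149 and 134 CPM in WT, 108 and 123 CPM in F1, and 107 and 94.7 CPM in F2. It changed by -0.30 ± 0.13 in F1 on the log2 scale, which did not pass (edgeR q = 0.0816), and -0.49 ± 0.13 in F2, which did (q = 0.00174). The F2 call did not hold in edgeR's quasi-likelihood test (q = 0.0129) or without WT replicate 1 (q = 0.0753), F2 replicate 1 (q = 0.0139) or F2 replicate 2 (q = 0.106). Luc7l differed between F2 and F1 by -0.19 ± 0.13 (edgeR q = 0.785), so the call in F2 alone is not a difference between F1 and F2.

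Ddx5 (chr11:106641669-106650499), a DEAD-box RNA helicase, was the most abundant, with 1109 and 1062 CPM in WT, 866 and 866 CPM in F1, and 943 and 924 CPM in F2. All F1 and F2 values lay below WT, but the log2 fold changes of -0.33 ± 0.11 in F1 (edgeR q = 0.0214) and -0.22 ± 0.11 in F2 (q = 0.154) did not pass. Ogt (chrX:98835399-98879690), the enzyme that adds O-linked N-acetylglucosamine to nuclear and cytoplasmic proteins, had 319 and 305 CPM in WT, 230 and 248 CPM in F1, and 269 and 230 CPM in F2. Its values were also all below WT, with log2 fold changes of -0.39 ± 0.12 in F1 (edgeR q = 0.0129) and -0.32 ± 0.12 in F2 (q = 0.043) that did not pass. A pair of annotated microRNA genes on the same strand share 84 and 101 exon bases with Ddx5.

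**Figure D1:**
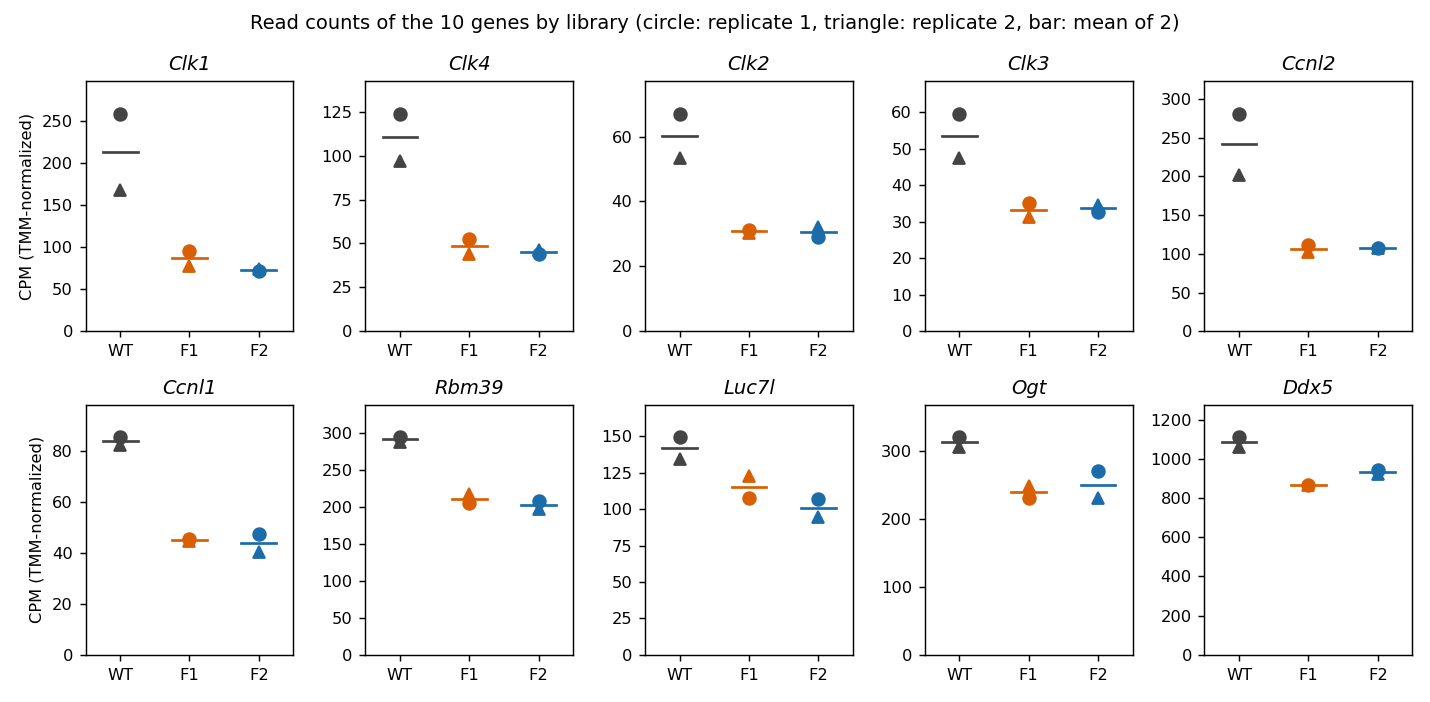
Normalized expression of the 10 genes in each library, in CPM, with 1 panel per gene and points for the 2 libraries of WT, F1 and F2. In every panel the 4 F1 and F2 points lie below both WT points, and the WT points of Clk1 (258 and 168 CPM) are the farthest apart relative to their level.

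In F1, 7 of the 10 genes were called, all lower than in WT, where 8.54% of all tested genes were called lower and 3.77% higher (exact test in edgeR at the threshold of 0.01). In F2, 8 of the 10 were called, all lower, against 8.1% of all genes called lower and 3.86% higher. The 7 genes called in F1, all but Luc7l, Ddx5 and Ogt, were also among the 8 called in F2, and 6.07% of all genes were called lower in both. The median log2 fold change of the 10 genes was -0.79 in F1 and -0.80 in F2, while the median of all genes was 0.01 and -0.00. In all 10 genes each of the 4 F1 and F2 libraries was below both WT libraries, which held for 23.7% of all genes. Both comparisons rest on the same pair of WT libraries and are not independent. In bulk tissue, fewer cells that express a gene and less RNA per cell cannot be told apart.

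None of the 10 genes was called between F2 and F1, where 0.74% of all genes were called by edgeR's exact test. The count at an unadjusted p under 0.05 was 0, and edgeR's quasi-likelihood test and DESeq2 also called 0. The 95% interval of the F2 against F1 difference ran from -0.60 to 0.10 on the log2 scale for Clk1, from -0.39 to 0.18 for Clk4 and from -0.28 to 0.30 for Ccnl2. The intervals are wide with 2 libraries per group, and values as large as their ends were not excluded.

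**Figure D2:**
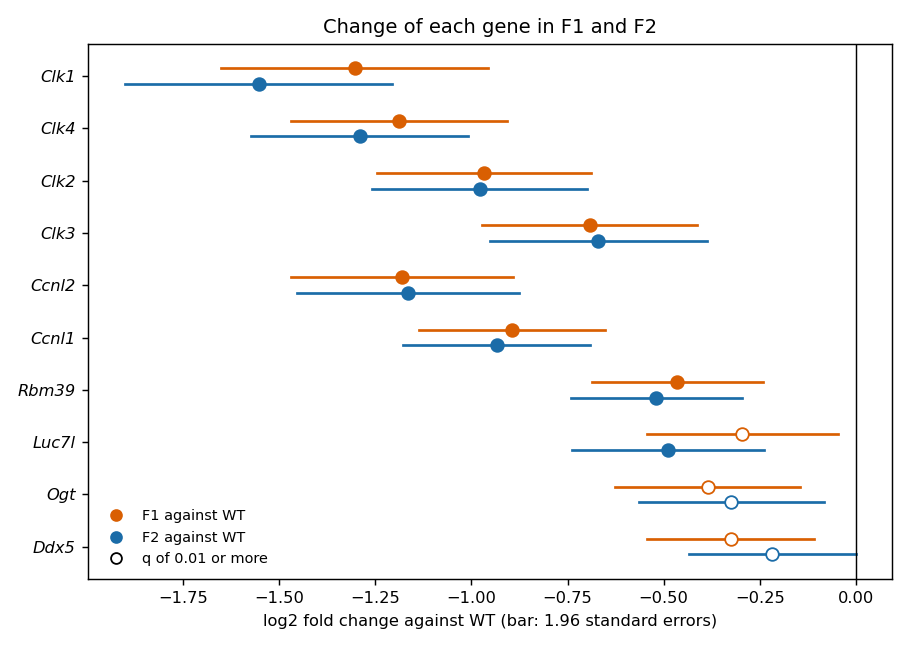
Log2 fold change of the 10 genes by edgeR's exact test in F1 and in F2 against WT, with bars for the 95% interval and open symbols for q of 0.01 or more. All estimates lie below 0, from -1.55 for Clk1 in F2 to -0.22 for Ddx5 in F2.

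Per length, as CPM per kilobase of annotated exon, the order of the levels was led by Ddx5 in all groups, at 188 CPM per kilobase in WT, 150 in F1 and 162 in F2. In WT it was followed by Ccnl2 (45.7), Rbm39 (42) and Ogt (38.8), where the range of the Ccnl2 libraries (38.2 to 53.3) included those of Rbm39 and overlapped with that of Ogt. Then came Clk1 (26.2), Clk3 (21.5), Clk4 (19) and Luc7l (18.9), of which each overlapped with the next. Ccnl1 (14) and Clk2 (11.4) had the lowest level per kilobase in WT and, by their means, in F1 and F2, where Ccnl1 overlapped with Clk4 in F2. In F1, Ccnl2 (20.2 CPM per kilobase) stood below Rbm39 (30.4) and Ogt (29.7), and Clk1 (10.6) below Luc7l (15.4) and Clk3 (13.3). In F2, Ccnl2 (20.4) and Clk1 (8.92) held the same places in the order. Exon lengths are those of GENCODE M1 and include the exons of retained-intron transcripts, and the annotation used for counting may differ.

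The genes differed in how much of their exon sequence in GENCODE M1 belongs to retained-intron transcripts alone. This share was 59.8% of exon bases in Clk4, 54.8% in Clk2, 52.3% in Ccnl1, 48% in Ccnl2 and 46.2% in Clk1. It was 32.5% in Rbm39, 25.3% in Ogt, 8.55% in Luc7l, 1.42% in Ddx5 and 0% in Clk3, which had a single annotated transcript. The 5 genes with the larger shares had log2 fold changes from -1.55 to -0.89, and the other 5 from -0.69 to -0.22, over both comparisons. These 10 genes share their libraries, and the order is a description.

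Other coding genes were set beside them in bins whose limits were chosen after the values of the 10 genes were seen. The 562 other genes with a share of at least 45% had a median log2 fold change of -0.08 in F1 and -0.10 in F2, with 11.7% called lower in F1 and 11% in F2. The 10276 genes with no retained-intron transcript had medians of 0.06 and 0.06, with 6.26% and 6.12% called lower. The share called lower did not rise throughout. It was 8.6% in F1 and 8.31% in F2 for genes under 10%. From 10 to 25% it was 11.3% and 11.1%, and from 25 to 45% it was 12% and 12.2%. The median log2 fold change did fall throughout, with 0.03, -0.004 and -0.05 in F1 and 0.01, -0.04 and -0.07 in F2 for these bins. The share of genes with every F1 and F2 library below both WT libraries rose throughout, from 17.9% to 34%. The log2 fold changes of Clk1, Clk2, Clk4, Ccnl1 and Ccnl2 lay well below the median of other genes with a like share. The first and last bins also differed in median exon length, 5480 bases against 3170 bases, and in median level, 30.8 against 18.1 CPM. Their median GC content was 47.3% at a share of at least 45% against 50.2% with no retained-intron transcript. The part of these properties in the result was not tested.

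**Figure D3:**
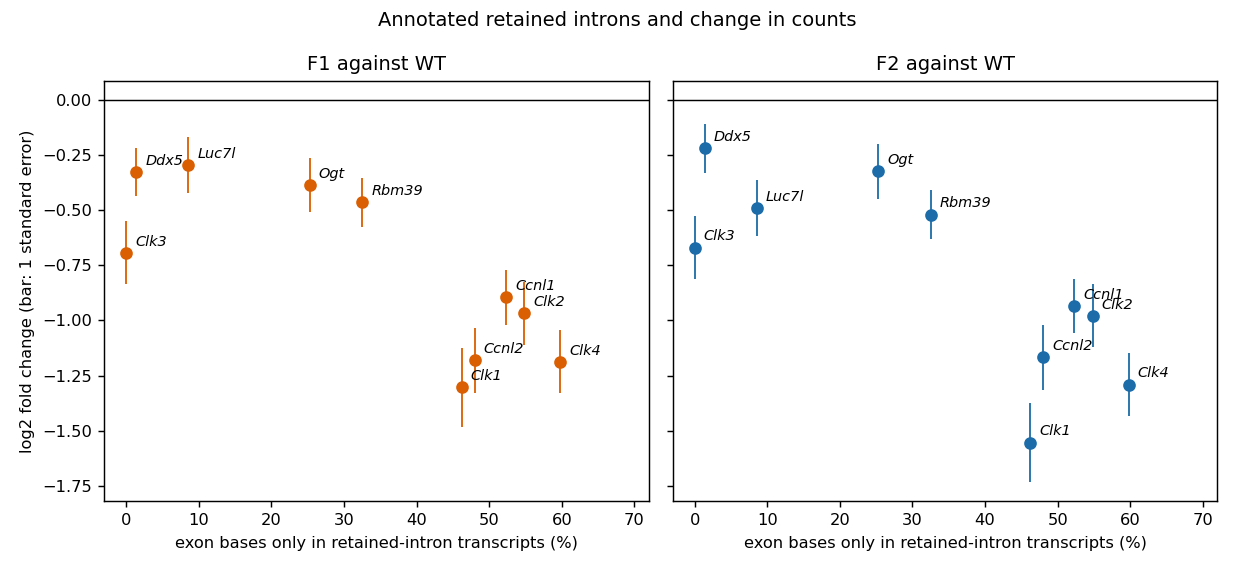
Log2 fold change against WT on the vertical axis and, on the horizontal axis, the percent of exon bases found only in retained-intron transcripts of GENCODE M1, for F1 and F2 in separate panels. The named points are the 10 genes, and the 5 genes at 46.2% or more lie at -0.89 or lower.

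The sequence before the start of the genes was searched because several of them fell together. RefSeq windows of 250 bases on GRCm38.p6 were at hand for 8 of the 10 genes, and not for Clk1 and Luc7l. TGACGTCA, the full cAMP response element and its own reverse complement, was in the windows of Clk4 and Ccnl1 and in those of 1.77% of 27025 genes. Its shorter form TGACG, searched on both strands and contained in the full element, was in 5 of the 8 (Clk2, Clk3, Clk4, Ccnl1 and Ccnl2) against 19.8% of genes. GGGCGG, the GC box, was in 7 of the 8 against 35.4% of genes, and CCAAT in 4 of the 8 (Clk2, Ccnl2, Rbm39 and Ddx5) against 37.5%. All were searched on both strands, and a gene with several starts counted once. The shares are over all genes with a window, whether or not they were expressed here, and not over the tested genes. These matches are letters in a window and not sites of binding. The windows that hold the full element are shown with TGACG, on either strand, in capitals, for Clk4 (chr11:51262864-51263113, plus strand) and Ccnl1 (chr3:65958250-65958499, minus strand).
Clk4 promoter: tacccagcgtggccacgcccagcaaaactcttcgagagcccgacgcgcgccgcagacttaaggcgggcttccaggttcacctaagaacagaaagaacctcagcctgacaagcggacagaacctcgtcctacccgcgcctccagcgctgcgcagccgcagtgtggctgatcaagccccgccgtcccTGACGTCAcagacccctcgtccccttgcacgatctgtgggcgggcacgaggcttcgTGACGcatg
Ccnl1 promoter: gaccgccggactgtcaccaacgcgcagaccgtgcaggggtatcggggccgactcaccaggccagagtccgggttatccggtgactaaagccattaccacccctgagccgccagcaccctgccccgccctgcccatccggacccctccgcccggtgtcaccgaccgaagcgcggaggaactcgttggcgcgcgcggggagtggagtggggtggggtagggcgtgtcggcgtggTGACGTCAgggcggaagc

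The proteins on which the Clk kinases act were described from a list of SR proteins and Tra2 proteins. Of 13 tested, 6 were called lower in F1 and 9 in F2, against 8.54% and 8.1% of all tested genes. None was higher, and the median log2 fold change was -0.42 in F1 and -0.54 in F2. Srsf2, which also acts in transcription elongation, changed by -1.16 in F1 and -1.10 in F2, and Srsf5 by -0.87 and -0.76. Srsf6 changed by -0.62 and -0.64, and Srsf11 by -0.55 and -0.65. The genes not called in F2 were Srsf3, Srsf4, Srsf12 and Tra2b, with log2 fold changes from -0.30 to -0.04. Among 6 other kinases of SR proteins, Srpk3 was called lower in both groups (-1.61 and -1.01), at a low level of 4.49 CPM in WT. Srpk1 (-0.62) and Prpf4b (-0.46) were called lower in F2 only, where the difference between F2 and F1 was not called. Srpk2, Dyrk1a and Dyrk1b did not pass in either.

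By the median of their list, relatives and partners of the 10 genes moved less. Luc7l3 moved more than Luc7l, which had -0.30 in F1 and -0.49 in F2. Of 8 tested, Luc7l3 (-0.72 in F1 and -0.74 in F2) and Luc7l2 (-0.38 and -0.41), both of the Luc7-like family, were called lower. Of all tested genes, 8.54% were called lower in F1 and 8.1% in F2. The list's median log2 fold change was -0.13 in F1 and -0.11 in F2. Ddx17, the closest relative of Ddx5, had -0.20 and -0.24, and Mgea5, which removes the sugar that Ogt adds, had -0.08 and 0.00, and neither passed. The kinases Cdk11b, Cdk12 and Cdk13 and the cyclin Ccnk did not pass either. Rbm23, a relative of Rbm39, was in the list and not in the count files.

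Among other transcripts known for nuclear retained introns, Nxf1, the mRNA export factor, was called lower in both groups (-0.81 in F1 and -0.82 in F2). Mat2a, Tug1, Slc7a2 and Mdm4 did not pass in either, with log2 fold changes from -0.11 to 0.60.

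Of 15 core splicing factors, 6 were called lower in F1 and 6 in F2, and none higher, against 8.54% and 8.1% of all tested genes called lower. Srrm2 (-1.03 in F1 and -0.87 in F2) and Srrm1 (-0.73 and -0.63), coactivators rich in serine and arginine repeats, Snrnp70 (-0.77 and -0.85), of the U1 particle, and Hnrnph1 (-0.55 and -0.53) were among them. The list's median was -0.31 in F1 and -0.31 in F2, nearer to 0 than that of the 10 genes.

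Nuclear noncoding RNAs fell beside the 10 genes. Of 7 tested, 6 were called lower in F1 and 7 in F2, against 8.54% and 8.1% of all tested genes. Rian did not pass in F1. Malat1, of nuclear speckles, where splicing factors are stored, changed by -1.27 in F1 and -1.27 in F2, Meg3 by -1.28 and -1.60, Mirg by -1.64 and -2.05 and Snhg11 by -1.24 and -1.55. Their summed level was 8282 and 8005 CPM in WT, 4088 and 3224 CPM in F1, and 3245 and 3611 CPM in F2. The summed level of the 10 genes was 2748 and 2439 CPM in WT, 1780 and 1784 CPM in F1, and 1861 and 1781 CPM in F2.

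**Figure D4:**
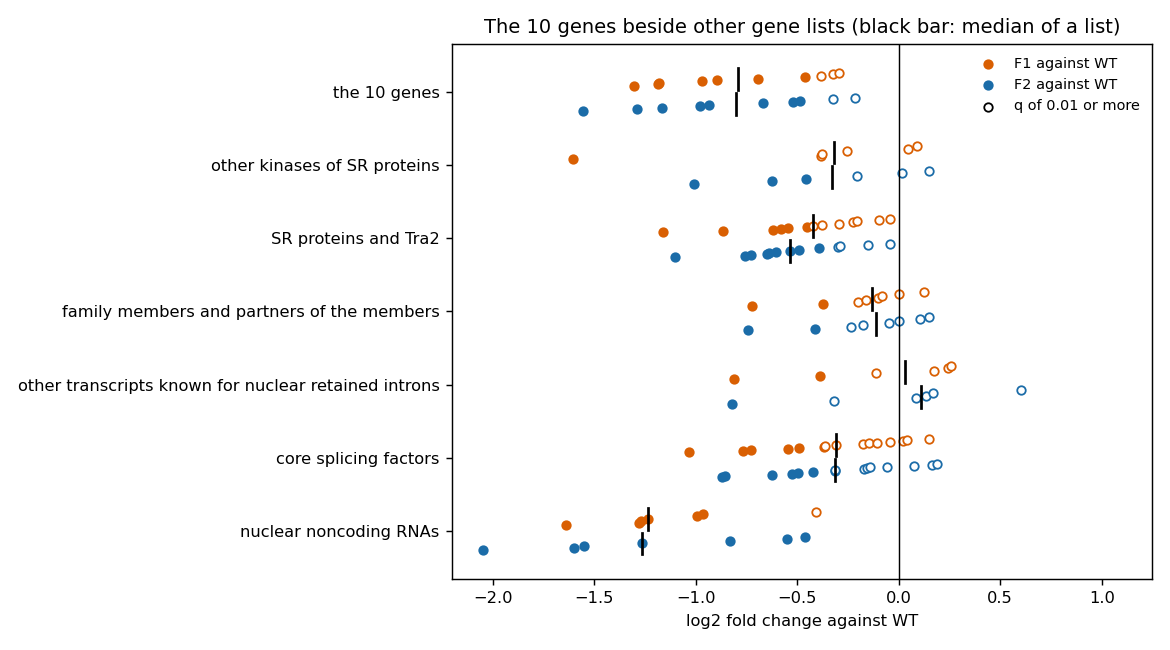
Log2 fold change against WT for each gene of the lists, in F1 and in F2, with open symbols for q of 0.01 or more by edgeR's exact test and a black bar at the median of each list. The medians of the 10 genes (-0.79 and -0.80) lie between those of the nuclear noncoding RNAs (-1.24 and -1.27) and of the SR proteins (-0.42 and -0.54).

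The genes whose pattern over the 6 libraries was most like that of Clk1, by Pearson's r of log2(CPM + 0.5) among the 13669 genes that averaged 50 counts or more, were Unc13d (r = 0.9999), Tnfrsf25 (0.9993), Ankrd10 (0.9988), Iqce (0.9987) and Pcsk7 (0.9986). Like Clk1, all 5 were highest in WT replicate 1, next in WT replicate 2 and lower in each of the other 4 libraries, which follows from how they were picked. The size of a change does not enter r. Log2 fold changes in F1 ran from -2.04 for Tnfrsf25 to -0.44 for Pcsk7, which was not called in F1 (edgeR q = 0.0142). Of the members, Clk4 (r = 0.993), Ccnl2 (0.986), Clk3 (0.983) and Clk2 (0.981) came closest to Clk1, and Ogt (0.837) was the least alike. These correlations are descriptions over libraries that share their depth and groups.

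The libraries differed in further measures beside these results. Reads that aligned uniquely but reached outside annotated exons made up 17.7% and 20.7% in WT, 13.8% and 12.3% in F1, and 13.9% and 17.4% in F2, highest in WT like the 10 genes, although WT replicate 2 and not replicate 1 had the most. Granule cell markers (Prox1, Calb1, Dsp, C1ql2 and Neurod1) were all present and none of the 5 was called in F1 or F2, with summed levels from 742 to 1040 CPM over all libraries. Oligodendrocyte markers summed to 1020 and 1874 CPM in WT, 2778 and 2076 CPM in F1, and 1402 and 2688 CPM in F2, and 2 of 6 were called higher in F1 (Mag and Cldn11) and 1 of 6 in F2 (Cldn11). Astrocyte markers summed to 794 and 890 CPM in WT, 947 and 1275 CPM in F1, and 1391 and 1087 CPM in F2, and 1 of 5 was called higher in F1 (Aldh1l1) and 3 of 5 in F2 (Gfap, Aldh1l1 and Gja1). Microglial markers were called higher in 0 of 5 in F1 and 3 of 5 in F2 (Cx3cr1, Csf1r and C1qa), oligodendrocyte precursor markers in 1 of 2 in both (Pdgfra), and endothelial markers in 0 of 4 in F1 and 1 of 4 in F2 (Pecam1). Of interneuron markers 0 of 6 in F1 and 1 of 6 in F2 (Gad2) were called higher, of markers of CA pyramidal cells 1 of 5 in each (Bok in F1 and Pou3f1 in F2), and of mossy cells and choroid plexus none of 3 in either. Over all tested genes, 3.77% were called higher in F1 and 3.86% in F2. The choroid plexus markers Ttr and Aqp1 were below 1 CPM on average in every group. The part of these measures in the lower levels of the 10 genes was not tested.

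**Figure D5:**
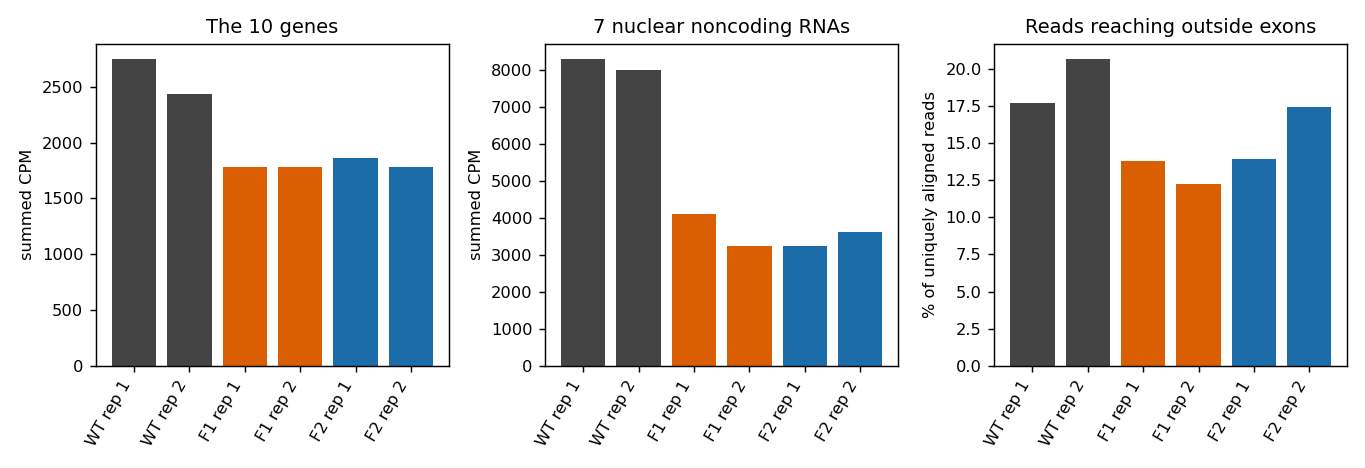
Summed CPM of the 10 genes and of the nuclear noncoding RNAs, and percent of uniquely aligned reads reaching outside exons, with 1 bar per library. The 10 genes sum to 2439 CPM or more in WT and to 1861 CPM or less in F1 and F2.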

How the data were processed

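Read counts per gene were analysed in 6 RNA-Seq libraries, and the bisulfite samples of the study were not used here. The authors prepared libraries with a TruSeq kit that does not mark strand, sequenced single-end reads of 50 bp, used TopHat, with known junctions only, for alignment to mm9, and counted with HTSeq in its intersection-strict mode. The deposited values are raw counts of uniquely aligned reads, without normalization. The submitters' processing notes name TopHat2 2.0.2 and Bowtie 1.0.0, and the annotation used for counting is not given in the sources used here. Rows naming no gene held 35.3% to 46.6% of all rows' reads and were left out. Reads on genes numbered 26358165 to 33727936 per library, so the number of libraries rather than depth limits the precision.

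Groups and replicate numbers were taken from the labels. After filterByExpr and TMM normalization, groups were compared by the exact test of edgeR 4.0.16 in R 4.3.3, with common and tagwise dispersion over all 6 libraries, Benjamini-Hochberg adjustment over 17421 genes and a threshold of q under 0.01. Libraries of a group varied by 10.6% (square root of the common dispersion). SE and 95% intervals of log2 fold changes come from the mean counts and tagwise dispersion. On simulated counts with 200 changed genes, the test recovered 87% in F1 against WT and 86% in F2 against WT, among 17129 genes. There were 4 false calls in each. The simulation gave every gene the common dispersion, and all changed genes the same size of fold change, alike in F1 and F2. Smaller changes and dispersions that differ between genes were therefore not covered. Libraries of a group were not duplicates (chi-square per degree of freedom from 19.2 to 24.9). The labels do not say whether replicate numbers pair the libraries. Replicate differences correlated across genes by -0.03 (WT with F1), -0.08 (WT with F2) and -0.18 (F1 with F2), none of them positive. This check cannot exclude that libraries of a number were handled together.

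The 10 genes and the gene lists were chosen with earlier results of these data known. Named are the 10 genes, called genes of each list (at most 4 by smallest p), genes behind any count of 5 or fewer, and the 5 genes most like Clk1. One gene that this rule covers is not reported here. Exons, introns and retained-intron transcripts come from GENCODE M1, which matched 32955 of 34620 symbols, and promoter windows from RefSeq. Alternatives were the likelihood-ratio and quasi-likelihood tests of edgeR, with and without a replicate block, DESeq2 1.42.0, other normalizations, filters and dispersions, a threshold of 0.05, offsets for GC content and exon length, and each library left out. A block with the F2 numbers crossed was added after seeing the data. Python 3.11.15 with pandas 2.3.3 and matplotlib 3.10.9 made the tables and figures.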

Additional observations from a re-analysis of the deposited data

How the results depend on the processing

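All 10 genes kept a negative log2 fold change against WT in all 20 alternatives. Clk1, Clk2, Clk4, Ccnl1 and Ccnl2 were called in F1 and F2 in each of the 6 fits that left out 1 library. Of 200 values of the 10 genes in F1, 5 lost and 10 gained the call, and of 200 in F2, 9 lost and 3 gained it, all for Clk3, Luc7l, Rbm39, Ddx5 or Ogt. Between 5 and 9 of the 10 genes were called in F1 (fewest without WT replicate 1) and between 6 and 9 in F2, and 0 in F2 against F1 throughout. Ogt in F1 passed with DESeq2 (adjusted p = 0.00923), and Ddx5 in F1 likewise (0.00845).

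Counts over all genes moved more. In F1 against WT, 2144 genes were called, 1029 by the quasi-likelihood test, 3623 at a threshold of 0.05, and 988 to 2043 with 1 library left out. In F2 against WT, 2084 were called, 997 by the quasi-likelihood test, 3606 at 0.05, and 703 to 2585 with 1 library left out. In F2 against F1, 129 were called, 2 by the quasi-likelihood test, 230 at 0.05, and 52 to 223 with 1 library left out. Fits with 1 library left out also differed in the genes that passed the filter and in the dispersion. Apart from the threshold, the cause of the moved counts was not tested.

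With the replicate number as a block, the quasi-likelihood test called 848, 758 and 9 genes in the same order of comparisons, with 6, 6 and 0 of the 10 genes, and the likelihood-ratio test 1743, 1758 and 117. Rbm39 lost its call in the former (adjusted p = 0.021 in F1 and 0.0124 in F2), as did Luc7l in F2 (0.0243). Whether the numbers pair the libraries is not stated, and replicate differences were not positively correlated. With the F2 numbers crossed, an alternative chosen after seeing the data, the likelihood-ratio test with the block called 2679, 2752 and 233 genes. With 2 libraries per group, small differences such as those of Ddx5 and Ogt are at the limit of detection. Normalization by total counts moved the share of higher calls in F1 from 30.6% to 24.9%.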
